A study of Rattus norvegicus with 12 samples.

Results

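Immediate-early genes are transcribed within minutes of a stimulus from factors already present in the cell, and their mRNAs are short-lived. Most code for transcription factors, such as the AP-1 proteins of the FOS, JUN and ATF families, or for inhibitors that end the signal, such as phosphatases and mRNA decay factors. They respond to growth factors, to glucose and depolarization in beta cells, and to the warming, digestion and shear by which islets are freed from a pancreas. They were described here as a set of 35 genes given by symbol, of which 34 were found among the 25888 gene symbols of a deposited count table of rat islet RNA. Mcl1 was not analysed here. All 34 passed the filter on low counts, and each was represented by its transcript with the highest mean count. The genes were not selected on their values, but the list was drawn up with earlier results of these data known.

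The islets came from Sprague Dawley rats with intrauterine growth restriction (IUGR) or from control rats. IUGR was induced by ligating both uterine arteries of the dam on embryonic day 18, and control litters were reduced to 8 pups. The 4 groups were IUGR islets at 2 weeks of age, control islets at 2 weeks, IUGR islets at 10 weeks and control islets at 10 weeks, with 3 libraries each. All islets were isolated by the same procedure, collagenase infused through the pancreatic duct and a Histopaque density gradient, and libraries were made from total RNA depleted of ribosomal RNA. The labels give neither the sex of the rats, nor the litters, nor whether islets were pooled, nor the date or length of an isolation, so p-values measure the spread between these 3 libraries a group.

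Known signals reach these genes through short promoter elements. Serum response factor binds CArG boxes, CREB and ATF proteins bind the cyclic AMP response element (CRE) TGACGTCA, AP-1 binds TGANTCA, and NF-kB binds a site of its own. RefSeq promoter sequences (rat build GRCr8, the 250 bases before the annotated start) were matched for 26 of the 34 genes and searched on both strands, and no matches of different elements overlapped. A CArG box lay in 4 of the 26 promoters (15.4%), against 1.496% of 33360 promoters. The CRE was in 5 of 26 (19.2%), against 1.59% of all promoters, and the NF-kB site was in 5 of 26 (19.2%), against 6.34%. AP-1's own site was in 0 of 26, against 6.35% of all, and so few promoters cannot show a lower share. Fos, Jun, Atf3, Myc, Egr3, Ier3, Nr4a3 and Klf2 had no matched promoter and were not searched. A match is a run of letters and not a shown binding site. Below are 6 of these promoters, from genes that recur in the results, each 5′ to 3′ on the gene's strand with the matched element in capitals: CArG boxes in Egr1 (chr18:26736828-26737077, plus strand), Egr2 (chr20:21054442-21054691, minus strand) and Zfp36 (chr1:92799109-92799358, minus strand), a CRE in Ier2 (chr19:40399123-40399372, plus strand), and NF-kB sites in Nfkbia (chr6:78597073-78597322, minus strand) and Nfkbiz (chr11:58251471-58251720, plus strand).
Egr1: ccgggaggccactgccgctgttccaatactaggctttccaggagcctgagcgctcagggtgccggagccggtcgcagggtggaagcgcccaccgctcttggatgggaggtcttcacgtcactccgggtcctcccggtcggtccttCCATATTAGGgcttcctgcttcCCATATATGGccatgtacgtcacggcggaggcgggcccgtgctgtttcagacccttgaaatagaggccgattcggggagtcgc
Egr2: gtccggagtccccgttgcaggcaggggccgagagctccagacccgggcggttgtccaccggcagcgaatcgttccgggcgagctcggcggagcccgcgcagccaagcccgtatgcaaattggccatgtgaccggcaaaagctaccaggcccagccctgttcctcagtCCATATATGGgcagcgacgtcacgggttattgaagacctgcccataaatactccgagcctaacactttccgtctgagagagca
Zfp36: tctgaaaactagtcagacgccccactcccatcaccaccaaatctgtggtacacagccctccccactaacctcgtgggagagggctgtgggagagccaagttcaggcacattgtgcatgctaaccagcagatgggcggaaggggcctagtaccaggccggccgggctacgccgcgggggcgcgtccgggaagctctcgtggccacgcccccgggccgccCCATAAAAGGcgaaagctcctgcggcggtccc
Ier2: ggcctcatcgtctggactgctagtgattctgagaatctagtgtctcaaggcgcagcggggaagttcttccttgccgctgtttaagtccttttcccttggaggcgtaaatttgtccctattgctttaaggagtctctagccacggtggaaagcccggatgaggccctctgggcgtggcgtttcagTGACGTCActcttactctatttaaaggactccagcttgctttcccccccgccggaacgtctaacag
Nfkbia: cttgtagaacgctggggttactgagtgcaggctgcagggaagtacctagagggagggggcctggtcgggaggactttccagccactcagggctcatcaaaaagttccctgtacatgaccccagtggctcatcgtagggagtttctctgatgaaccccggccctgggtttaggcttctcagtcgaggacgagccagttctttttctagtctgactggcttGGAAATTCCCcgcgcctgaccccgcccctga
Nfkbiz: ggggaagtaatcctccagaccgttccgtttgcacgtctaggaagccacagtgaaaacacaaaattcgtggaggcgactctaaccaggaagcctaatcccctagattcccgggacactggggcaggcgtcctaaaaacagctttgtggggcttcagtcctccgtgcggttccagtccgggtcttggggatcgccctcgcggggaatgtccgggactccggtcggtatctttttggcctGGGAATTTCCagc
Egr1 carried 2 CArG boxes, 105 and 83 bases before its start, and Egr2 carried 1 at 83 bases before its start.

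Libraries held 30.4 to 64.2 M counts (M, mega), and the lowest count of any of the 34 genes in a library was 16, for Egr3 in control replicate 1 of 2 weeks. Levels are given as CPM, counts normalised to library totals scaled by TMM factors, always for replicates 1, 2 and 3 in that order. They are not comparable between genes, because transcript lengths were not used. The beta cell marker list, with 9 of 10 genes found, summed to 33888 to 38314 CPM in IUGR and 21929 to 38490 CPM in control islets of 2 weeks, and to 176369 to 190868 CPM in IUGR and 94066 to 141581 CPM in control islets of 10 weeks. A list of 25 acinar genes, which code for digestive enzymes and their partners in the exocrine pancreas, took very different shares of the counts. At 2 weeks its share was 6.03, 4.19 and 8.95% in IUGR libraries, against 40.1, 21.6 and 20.6% in control libraries. At 10 weeks it was 1.20, 2.23 and 0.599% in IUGR libraries, against 41.7, 13.5 and 45.6% in control libraries. The groups did not overlap at either age. The 95% Wilson interval, which covers counting error only, was 0.597 to 0.602% for the lowest share and 45.58 to 45.61% for the highest. The mesenchymal list summed to 10433 to 12246 CPM in IUGR and 5058 to 8882 CPM in control islets of 2 weeks, and to 574 to 727 CPM in IUGR and 1167 to 2246 CPM in control islets of 10 weeks. Endothelial markers summed to 894 to 1065 CPM in IUGR and 491 to 795 CPM in control islets of 2 weeks, and to 433 to 601 CPM in IUGR and 641 to 1088 CPM in control islets of 10 weeks. Macrophage markers, with 8 of 10 genes found, overlapped between IUGR and control islets at both ages, at 67.5 to 87.5 CPM in IUGR and 32.5 to 72.5 CPM in control islets of 2 weeks and 58.4 to 146 CPM in IUGR and 45.9 to 166 CPM in control islets of 10 weeks. None of the listed mesenchymal, endothelial, macrophage or acinar markers that were found was at 0 in any library. These bulk samples cannot tell apart fewer cells of a type and less RNA per cell.

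The level of the set differed from library to library. Each gene's log2 CPM was set against its mean over the 12 libraries, and the median of the 34 deviations was taken in each library. At 2 weeks this median was 0.76, 0.95 and 0.48 in IUGR libraries, against -0.79, 0.09 and 0.29 in control libraries. At 10 weeks it was -0.87, -0.94 and -0.93 in IUGR libraries, against -0.27, 0.69 and 0.44 in control libraries. The IUGR libraries were thus the highest at 2 weeks and the lowest at 10 weeks on this scale, and the control libraries of each age were spread widely. Removing the acinar list from the library sizes left the library medians between -0.90 and 0.90.

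**Figure D1:**
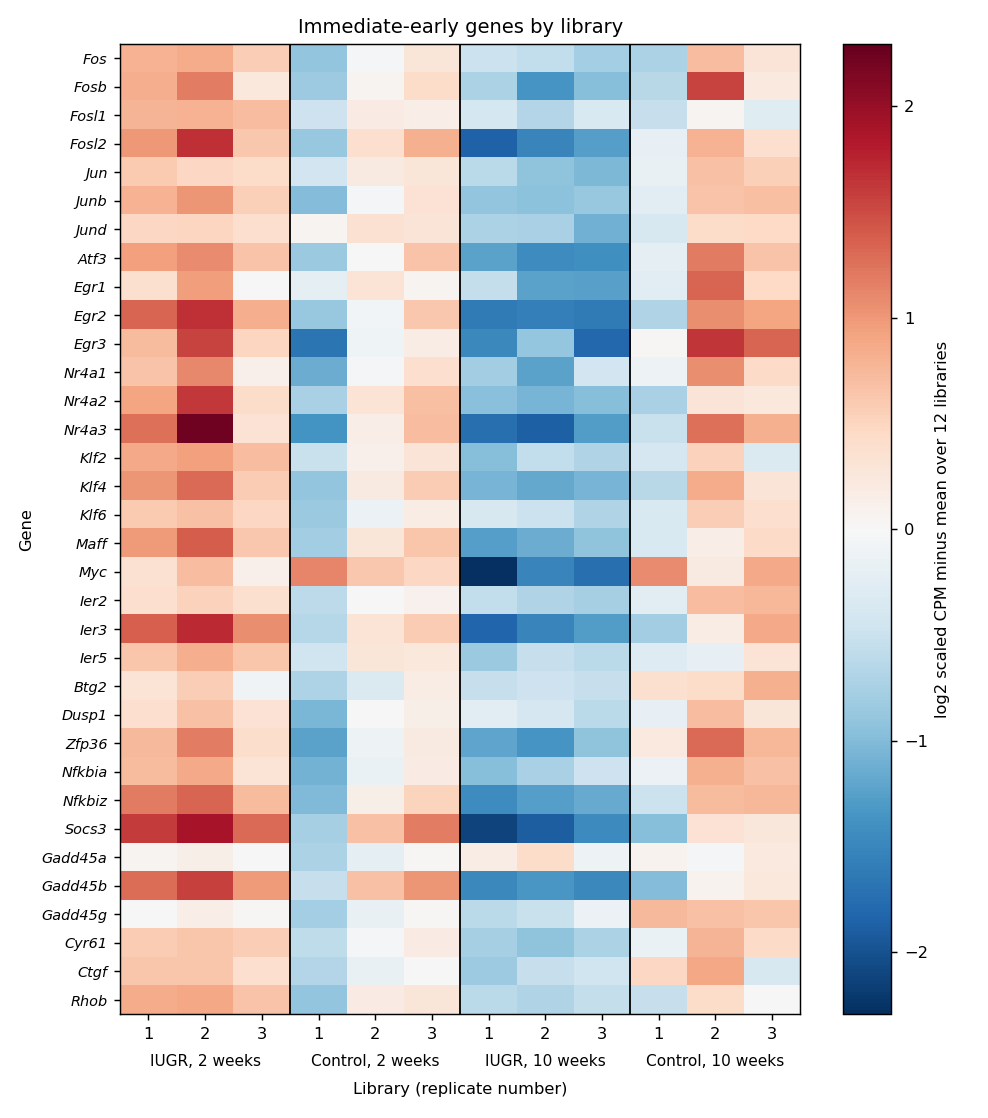
Heat map of the 34 genes (rows, ordered by role) in the 12 libraries (columns), coloured by log2 CPM minus the gene's mean over all libraries. At 2 weeks the IUGR columns have medians of 0.48 to 0.95, and at 10 weeks the IUGR columns have medians of -0.94 to -0.87.

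Within a group, the libraries kept nearly the same order over the genes. Among IUGR libraries of 2 weeks, replicate 2 was the highest for 33 of the 34 genes (34.4% of all 20733 transcripts tested) and replicate 3 the lowest for 33 (35.4% of all). Control replicate 1 of 2 weeks was the lowest of its group for 33 genes (42.1% of all transcripts), and replicate 3 was the highest for 29 (33.7%). In controls of 10 weeks, replicate 1 was the lowest for 30 genes (36.8% of all). IUGR libraries of 10 weeks had no such order: replicates 1, 2 and 3 were the lowest for 12, 11 and 11 genes. The ratio of the highest to the lowest library of a group had a median over the genes of 1.48 in IUGR islets of 2 weeks and 2.32 in controls of that age, and of 1.29 in IUGR islets of 10 weeks and 2.00 in controls of that age. No gene exceeded a ratio of 2 in IUGR islets of 10 weeks, where the ratios ran from 1.04 for Btg2 to 1.90 for Egr3. In controls of 10 weeks 17 genes exceeded it, up to 4.57 for Fosb. These ratios were not taken for all transcripts, so whether the spread is particular to these genes was not tested. Because the genes largely share an order of libraries, counts of genes in the comparisons below are not counts of independent results.

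At 10 weeks, where the question was whether IUGR islets differ from control islets, 26 of the 34 genes fell in IUGR islets and none rose (edgeR quasi-likelihood test, adjusted p under 0.05 after Benjamini-Hochberg adjustment over all transcripts tested, 3 libraries a group). Of all transcripts tested, 15.5% were lower at that threshold and 12.4% were higher. The median log2 fold change of IUGR over control was -1.23 over the genes and -0.01 over all transcripts. For 31 genes every IUGR library lay below every control library, as for 18.9% of all transcripts. The 3 exceptions were Fos, Fosl1 and Gadd45a. These levels rest on TMM factors of 0.492, 1.07 and 0.440 in controls of 10 weeks and 1.18, 1.18 and 1.16 in IUGR libraries. As a plain share of counts, Atf3 was lower in control replicate 1 (3246 of 64.2 M) than in IUGR replicate 1 (1819 of 30.4 M). Overlap without these factors was not counted for the other genes.

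At 2 weeks none of the 34 genes passed the adjusted threshold, although 33 of 34 estimates were positive. The sign of 7 estimates turned, none past the threshold, when the mean acinar level of each library was added to the fit: Fosb was at -0.61, Egr1 at -0.48, Nr4a1 at -0.34, Fosl2 at -0.095, Klf4 at -0.052 and Nr4a3 at -0.017, and Myc at 0.21. The background was 3.88% of all transcripts, 1.66% higher and 2.21% lower. At an unadjusted p under 0.05 there were 25 genes, against 28.6% of all transcripts. DESeq2 called 15 genes higher and none lower, against 8.95% of its transcripts called higher. The median log2 fold change was 0.83 over the genes, against 0.05 over all transcripts, and for 20 genes all IUGR libraries lay above all control libraries, as for 21.8% of all transcripts. Without control replicate 1 of 2 weeks the median was 0.56 and no gene passed, and without replicate 3 the median was 1.10 and 5 genes passed as higher. Without control replicate 2 of 10 weeks, which enters through the shared filter, scaling and estimate of spread, 2 passed as higher, with a median of 0.78.

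**Figure D2:**
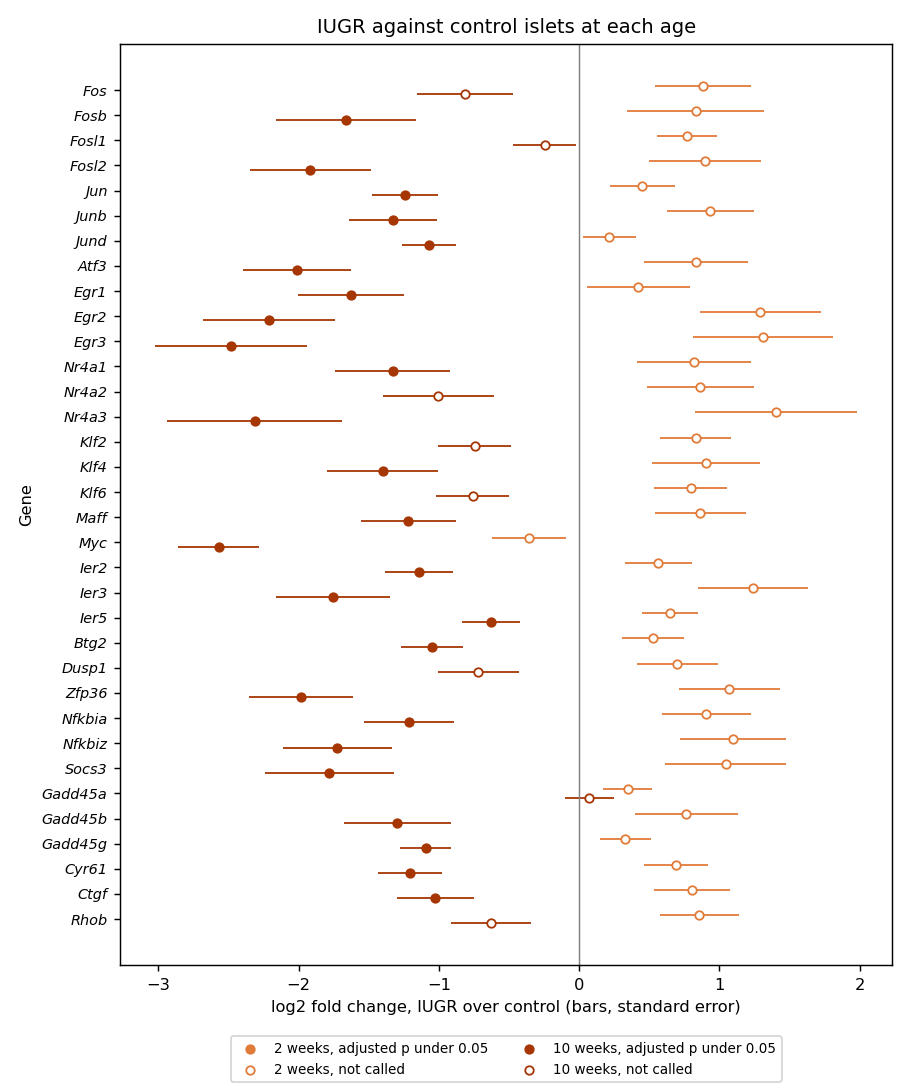
Log2 fold changes of IUGR over control islets at 2 weeks and at 10 weeks for each gene, with bars of 1 standard error and filled points where the adjusted p was under 0.05. The 2-week estimates are open and centre on 0.83, and 26 of the 10-week estimates are filled, all below 0.

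The AP-1 group held 8 genes: Fos, Fosb, Fosl1 and Fosl2, which have to pair with a JUN protein to bind DNA, Jun, Junb and Jund, and Atf3, a stress-induced member of the ATF/CREB family. At 10 weeks 6 of the 8 fell in IUGR islets, against 15.5% of all transcripts, with a median over the 8 of -1.29. Atf3 had 50.6, 44.0 and 44.8 CPM in IUGR islets of 10 weeks, against 103, 272 and 188 CPM in control islets. All 3 IUGR libraries lay below the lowest control, and the log2 fold change was -2.01 ± 0.38 (standard error, as for all values below; adjusted p = 0.00490). At 2 weeks Atf3 had 228, 252 and 187 CPM in IUGR and 66.1, 119.5 and 188 CPM in control islets, where the lowest IUGR library met the highest control.

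Junb, which can replace or oppose Jun, had 73.7, 71.2 and 74.9 CPM in IUGR islets of 10 weeks, against 116, 217 and 220.4 CPM in control islets. Its fold change was -1.33 ± 0.31 on the log2 scale (adjusted p = 0.0117), with a narrow band of IUGR values. At 2 weeks it had 238, 278 and 200.1 CPM in IUGR and 68.9, 133 and 172 CPM in control islets. Those groups did not overlap, but the adjusted p was 0.0928 for a log2 fold change of 0.93 ± 0.31. Jun fell with a log2 change of -1.24 ± 0.24 (adjusted p = 0.00488) and Jund, the member that resting cells already express, with -1.07 ± 0.19 (adjusted p = 0.00392) at 10 weeks. Fosl2 fell with -1.92 ± 0.43 (adjusted p = 0.00941) and Fosb with -1.66 ± 0.50 (adjusted p = 0.0310). With the mean acinar level added to the fit the log2 fold change of Jund was -1.37, larger than without it, and no longer passed (adjusted p = 0.0786).

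Fos, the best known of the immediate-early genes, had 274, 262 and 226 CPM in IUGR islets of 10 weeks, against 234, 632 and 474 CPM in control islets. Control replicate 1 lay between the IUGR libraries, and the log2 fold change of -0.81 ± 0.34 did not pass (adjusted p = 0.0981). At 2 weeks Fos had 669, 701 and 569 CPM in IUGR and 206, 374 and 469.7 CPM in control islets. All IUGR values were above the highest control, with a log2 fold change of 0.88 ± 0.34 and an adjusted p of 0.129. Fosl1 stayed under 3 CPM in all libraries and overlapped between IUGR and control islets at 10 weeks (log2 fold change -0.25 ± 0.23, adjusted p = 0.445).

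**Figure D3:**
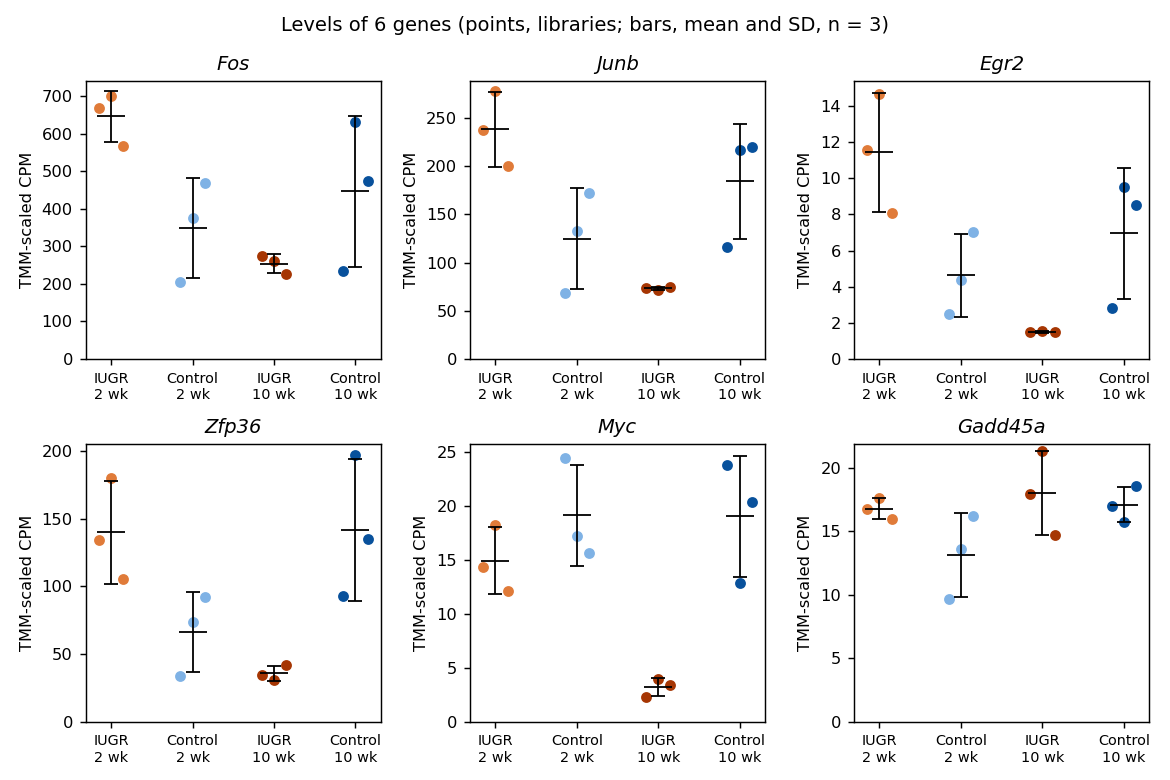
CPM of 6 of the genes in the 12 libraries, 1 point a library with IUGR left of control at each age, with the group mean and SD (n = 3) as bars. Myc is near its control level in IUGR islets of 2 weeks and at 2.28 to 3.91 CPM in IUGR islets of 10 weeks, and Gadd45a overlaps between IUGR and control islets at both ages.

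The zinc-finger factors Egr1, Egr2 and Egr3, whose promoters are known targets of serum response factor, all fell at 10 weeks. Of all transcripts, 15.5% passed as lower in that comparison. Egr1 had 42.6, 26.3 and 26.0 CPM in IUGR and 52.2, 155 and 85.3 CPM in control islets of 10 weeks. The 2 groups were apart, though control replicate 1 was nearer to IUGR replicate 1 than to the other controls, and the log2 fold change was -1.63 ± 0.38 (adjusted p = 0.0113). Egr2 had 1.48, 1.54 and 1.48 CPM in IUGR and 2.82, 9.54 and 8.51 CPM in control islets of that age. Its IUGR values were almost equal, and the log2 fold change was -2.21 ± 0.47 (adjusted p = 0.00790). Egr3, which held the lowest single count of the set, had 0.529, 0.797 and 0.420 CPM in IUGR and 1.49, 4.58 and 3.69 CPM in control islets, a log2 fold change of -2.48 ± 0.54 (adjusted p = 0.00871). At 2 weeks Egr2 had 11.6, 14.7 and 8.10 CPM in IUGR and 2.49, 4.38 and 7.04 CPM in control islets, without overlap. Egr2 and Egr3 had 2-week log2 fold changes of 1.29 ± 0.43 and 1.31 ± 0.50 (adjusted p = 0.0947 and 0.123), and Egr1 had 0.42 ± 0.37 (adjusted p = 0.470) with overlapping groups.

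The orphan nuclear receptors Nr4a1, Nr4a2 and Nr4a3, which act without a known natural ligand and are induced by cyclic AMP and calcium, were lower in IUGR islets of 10 weeks with no overlap, and 2 of the 3 passed. Of all transcripts, 18.9% were lower without overlap and 15.5% passed as lower. Nr4a3 had 2.31, 2.09 and 3.14 CPM in IUGR and 5.39, 18.5 and 13.5 CPM in control islets, with a log2 fold change of -2.31 ± 0.62 (adjusted p = 0.0203). Nr4a1 fell with -1.33 ± 0.41 (adjusted p = 0.0340), and Nr4a2 had -1.003 ± 0.39 (adjusted p = 0.0784). At 2 weeks Nr4a3 had 18.5, 35.9 and 9.70 CPM in IUGR and 2.95, 8.53 and 12.5 CPM in control islets. That was the widest spread within both groups of that age, 3.70 times in IUGR and 4.25 times in control islets, and the groups overlapped. Its log2 fold change at 2 weeks was the highest of the set, 1.41 ± 0.58 (adjusted p = 0.145), and was -0.017 with the mean acinar level added to the fit.

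Krüppel-like factors, which bind GC-rich promoters, and the small MAF protein Maff, which lacks an activation domain of its own, were also lower at 10 weeks with no overlap. Of all transcripts, 18.9% were lower without overlap. For Klf6 the groups almost met, at 57.28 CPM in IUGR replicate 1 and 57.32 CPM in control replicate 1. Klf4 fell with a log2 change of -1.40 ± 0.39 (adjusted p = 0.0240) and Maff with -1.22 ± 0.34 (adjusted p = 0.0226). Klf2, which shear stress induces in endothelium, and Klf6 had adjusted p-values of 0.0537 and 0.0509, just outside the threshold, for log2 fold changes of -0.75 ± 0.26 and -0.76 ± 0.26. At 2 weeks Klf2 had 27.2, 28.6 and 24.4 CPM in IUGR and 10.4, 16.2 and 18.4 CPM in control islets. All IUGR values were higher, but the adjusted p was 0.0784.

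Myc, the growth and ribosome biogenesis regulator, had 2.28, 3.91 and 3.36 CPM in IUGR islets of 10 weeks, against 23.8, 12.9 and 20.4 CPM in control islets. IUGR libraries were far below all controls, and the log2 fold change of -2.57 ± 0.29 was the most negative of the set (adjusted p = 0.000740). At 2 weeks Myc had 14.3, 18.2 and 12.1 CPM in IUGR and 24.4, 17.1 and 15.7 CPM in control islets, the only negative estimate of that age (-0.36 ± 0.26, adjusted p = 0.387). The highest Myc level of each control group was in replicate 1, where the acinar share was 41.7% at 10 weeks and 40.1% at 2 weeks, and where most other genes of the set were at their lowest. Its lowest control level of 10 weeks was in replicate 2, with an acinar share of 13.5%. Control replicate 3 of 10 weeks had the highest acinar share, 45.6%, and a Myc level below that of replicate 1, at 20.4 CPM. With the mean acinar level added to the fit the 10-week log2 fold change was -1.43 and did not pass (adjusted p = 0.133). Against control replicate 2 alone, the control library of 10 weeks with the lowest acinar share, it was -1.99 (adjusted p = 0.00399).

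The IER genes and Btg2 code for small early-response proteins. Ier3 acts on cell survival, Ier5 on heat shock factor, and Btg2 restrains proliferation. All 4 fell in IUGR islets of 10 weeks, where 15.5% of all transcripts passed as lower. Ier3 had 9.49, 11.8 and 13.9 CPM in IUGR and 19.3, 37.7 and 61.8 CPM in control islets, without overlap, a log2 fold change of -1.76 ± 0.41 (adjusted p = 0.0108). Btg2 had 170.2, 176 and 169.9 CPM in IUGR and 315, 327 and 428 CPM in control islets, with the 3 IUGR libraries almost level. Its log2 fold change was -1.05 ± 0.22 (adjusted p = 0.00768), that of Ier2 was -1.14 ± 0.24 (adjusted p = 0.00779) and that of Ier5 -0.63 ± 0.21 (adjusted p = 0.0428). At 2 weeks Ier3 had 87.0, 110.0 and 70.8 CPM in IUGR and 21.3, 41.7 and 50.4 CPM in control islets, well separated, with a log2 fold change of 1.24 ± 0.39 and an adjusted p of 0.0847. With the mean acinar level added to the fit none of the 4 passed at 10 weeks, although each log2 fold change was larger than without it: -1.81 for Ier2 (adjusted p = 0.0635), -2.50 for Ier3 (adjusted p = 0.129), -0.73 for Ier5 (adjusted p = 0.380) and -1.36 for Btg2 (adjusted p = 0.141).

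The feedback group inhibits the pathways that switch these genes on. Dusp1 dephosphorylates MAP kinases, Zfp36 speeds the decay of AU-rich mRNAs such as that of Tnf, Nfkbia holds NF-kB in the cytoplasm, Nfkbiz steers it in the nucleus, and Socs3 blocks JAK-STAT signalling. In all 5 genes the IUGR libraries lay above all controls at 2 weeks and below all controls at 10 weeks, and 4 of the 5 passed at 10 weeks. Of all transcripts, 21.8% lay above all controls at 2 weeks and 18.9% below all controls at 10 weeks, and 15.5% passed as lower at 10 weeks. Zfp36 had 34.5, 31.1 and 42.0 CPM in IUGR and 93.2, 197 and 135 CPM in control islets of 10 weeks. Its log2 fold change was -1.98 ± 0.37 (adjusted p = 0.00446). At 2 weeks it had 134, 180.2 and 105 CPM in IUGR and 33.9, 73.4 and 92.1 CPM in control islets, a log2 fold change of 1.07 ± 0.36 (adjusted p = 0.0938).

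Socs3 had 3.37, 3.94 and 5.29 CPM in IUGR and 7.45, 18.4 and 17.5 CPM in control islets of 10 weeks, a log2 fold change of -1.78 ± 0.46 (adjusted p = 0.0175). At 2 weeks it had 44.2, 54.0 and 35.8 CPM in IUGR and 8.61, 23.3 and 32.8 CPM in control islets. Control replicate 1 was again the lowest, and the 2-week fold change of 1.04 ± 0.43 did not pass (adjusted p = 0.146). Nfkbiz fell with a log2 change of -1.72 ± 0.39 (adjusted p = 0.00964) and Nfkbia with -1.22 ± 0.32 (adjusted p = 0.0187) at 10 weeks, while Dusp1 had -0.72 ± 0.29 (adjusted p = 0.0844).

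Among the GADD45 genes, which bind stress kinases and cell cycle proteins after DNA damage, the 3 members differed. Gadd45a had 18.0, 21.3 and 14.7 CPM in IUGR and 16.98, 15.8 and 18.6 CPM in control islets of 10 weeks, fully overlapping. At 2 weeks it had 16.7, 17.6 and 15.97 CPM in IUGR and 9.64, 13.6 and 16.2 CPM in control islets, overlapping as well. Its log2 fold changes were 0.07 ± 0.18 at 10 weeks (adjusted p = 0.787) and 0.35 ± 0.18 at 2 weeks (adjusted p = 0.216). Gadd45g had 31.2, 33.5 and 43.4 CPM in IUGR and 80.0, 76.4 and 74.5 CPM in control islets of 10 weeks, with the narrowest control spread of the set, 1.07 times. It fell with a log2 change of -1.09 ± 0.18 (adjusted p = 0.00277), and Gadd45b with -1.30 ± 0.38 (adjusted p = 0.0286). In the fit with the acinar level Gadd45b had -2.45 (adjusted p = 0.0950) and Maff -2.34 (adjusted p = 0.0812), both larger changes that no longer passed.

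Cyr61 and Ctgf, secreted matricellular proteins now named Ccn1 and Ccn2 and known targets of the coactivator Yap1, and Rhob, a small GTPase of the actin cytoskeleton, form the last group. Cyr61 had 75.3, 66.8 and 76.5 CPM in IUGR and 114, 218 and 172 CPM in control islets of 10 weeks. Its log2 fold change was -1.20 ± 0.23 (adjusted p = 0.00486). At 2 weeks it had 189, 196 and 187 CPM in IUGR, the tightest group of any gene of that age, and 85.0, 125 and 144 CPM in control islets. The 2-week change of 0.69 ± 0.23 had an adjusted p of 0.0894. Ctgf fell with -1.02 ± 0.27 at 10 weeks (adjusted p = 0.0190), and Rhob had -0.63 ± 0.28 (adjusted p = 0.118). All 3 genes were higher in every IUGR library than in any control at 2 weeks and lower in every one at 10 weeks. The shares of all transcripts were 21.8% at 2 weeks and 18.9% at 10 weeks.

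Leaving out each of the 12 libraries in turn, 16 of the 26 calls at 10 weeks were made in every fit: Atf3, Btg2, Cyr61, Egr1, Egr2, Egr3, Fosl2, Gadd45g, Ier2, Ier3, Jun, Junb, Jund, Myc, Nfkbiz and Zfp36. The other 10 (Ctgf, Fosb, Gadd45b, Ier5, Klf4, Maff, Nfkbia, Nr4a1, Nr4a3 and Socs3) missed the threshold in at least 1 of these fits. The number called was 17 without control replicate 3 of 10 weeks, and 16 and 17 without IUGR replicates 1 and 2 of that age. Control replicate 2 was also used alone as the control of 10 weeks, since the other 2 had acinar shares above 40%. Taking this lone library to vary like the other groups, the median log2 fold change was -1.501. Replicate 2 also had the highest median deviation of the 3 controls, 0.69 against -0.27 and 0.44. It was the highest of them for 22 of the 34 genes, so using it alone lowers the median. With the mean acinar level added to the fit 20 genes were lower and none higher at 10 weeks, against 6.47% of all transcripts lower, and the median log2 fold change was -2.47. At 2 weeks that covariate left a median of 0.16 with no gene at an unadjusted p under 0.05, against 12.5% of all transcripts, and 0.00% of all transcripts passed the adjusted threshold. At 2 weeks the mesenchymal list had 1 of 10 genes called higher and the endothelial list none of 10, against 1.66% of all transcripts. Higher in every IUGR library than in any control were 9 mesenchymal and 8 endothelial markers, against 21.8% of all transcripts, with medians of 0.68 and 0.51. At 10 weeks the mesenchymal and endothelial lists each had 7 of 10 called lower, against 15.5% of all transcripts. The macrophage list had 2 of 8 called lower and the acinar list 24 of 25. In the beta cell list 4 of 9 were called higher at 10 weeks, against 12.4% of all transcripts, with a median of 0.70. Of these cell types, only the acinar level was entered as a term in a fit of the 34 genes. That fit cannot fully separate it from the condition, since acinar shares did not overlap between IUGR and control at either age. The part of the other cell types was not tested.

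**Figure D4:**
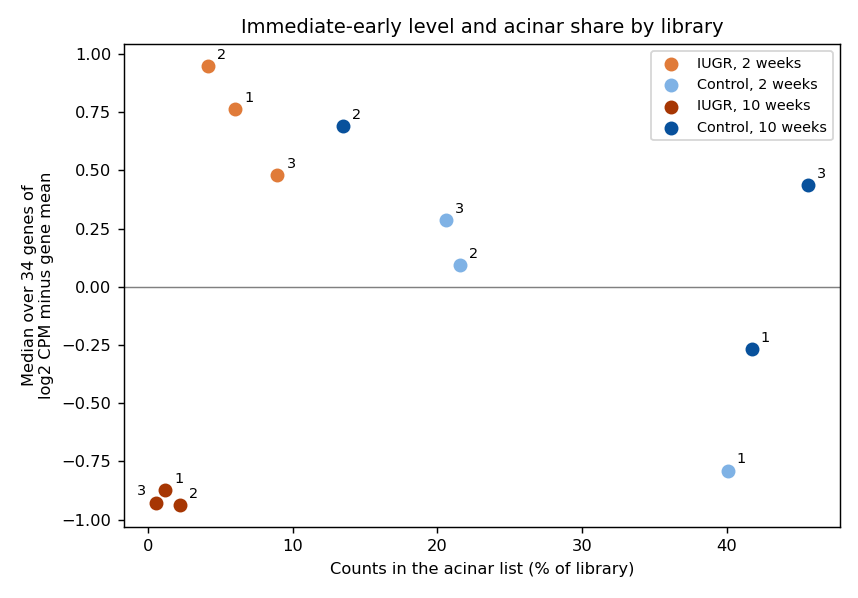
Median log2 deviation of the 34 genes in each library against the acinar share of its counts in percent, with IUGR and control libraries at 2 and 10 weeks marked. At both ages IUGR libraries have the lower acinar shares, with medians of 0.48 to 0.95 at 2 weeks and -0.94 to -0.87 at 10 weeks.

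The question of whether the IUGR effect differed between ages was tested directly, as the 10-week minus the 2-week log2 fold change. IUGR effect names the difference between IUGR and control libraries, and the part of islet isolation in it was not tested. This difference was negative for all 34 genes and passed for 32, against 10.4% of all transcripts lower and 3.97% higher. The genes moved together from library to library, so the 32 are not independent results. In the same test 9 of 10 mesenchymal, 8 of 10 endothelial, 3 of 8 macrophage and 7 of 25 acinar markers were called lower, with medians of -2.31, -1.39, -1.20 and -3.01, and the part of the mesenchymal, endothelial and macrophage markers in the result was not tested. The median was -2.05 over the 34 genes and -0.0024 over all transcripts. Egr3 had the most negative difference, -3.79 ± 0.74 (adjusted p = 0.00850), followed by Nr4a3 with -3.72 ± 0.85 (adjusted p = 0.0164), Egr2 with -3.51 ± 0.64 (adjusted p = 0.00691) and Zfp36 with -3.06 ± 0.51 (adjusted p = 0.00526). Ier3 had -2.99 ± 0.57, Atf3 -2.85 ± 0.53 and Junb -2.26 ± 0.44 (adjusted p = 0.00774, 0.00733 and 0.00859). Fos, which passed at neither age alone, passed here with -1.70 ± 0.49 (adjusted p = 0.0402). Fosl1 missed the threshold with -1.01 ± 0.31 (adjusted p = 0.0514), and Gadd45a had -0.27 ± 0.25 (adjusted p = 0.499). Of the 32 calls, 23 were made in every fit that left out 1 library. With the mean acinar level added to the fit 33 genes passed, all lower, against 14.3% of all transcripts lower. Without control replicate 1 of 2 weeks and the 2 controls of 10 weeks with acinar shares above 40%, the median was -2.04. That fit keeps control replicate 2 alone at 10 weeks, the control of that age with the highest median deviation.

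The change with age was then compared within each group. These comparisons share their libraries with those above, so they are set side by side and not used as separate evidence. In IUGR islets 33 of the 34 genes fell between 2 and 10 weeks, with no overlap between the ages, against 29.2% of all transcripts lower, 27.3% higher and 35.5% not overlapping in that direction. The median log2 fold change of 10 over 2 weeks was -1.52, against 0.00017 for all transcripts. Socs3 fell with a log2 change of -3.41 ± 0.48 (adjusted p = 0.000148), Nr4a3 with -3.08 ± 0.63 (adjusted p = 0.00169), Ier3 with -2.93 ± 0.42 (adjusted p = 0.000169), Gadd45b with -2.72 ± 0.39 (adjusted p = 0.000178) and Myc with -2.22 ± 0.28 (adjusted p = 7.82e-05). Gadd45a did not pass, with 0.10 ± 0.18 (adjusted p = 0.643). Leaving out 1 library kept 31 of the 33 calls in every fit, the exceptions being Dusp1 and Gadd45g. All 10 mesenchymal and 8 of 10 endothelial markers fell with age in IUGR islets as well, and their part in the fall of the 34 genes was not tested.

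In control islets 4 of the 34 genes rose between 2 and 10 weeks and none fell, against 17.2% of all transcripts higher and 15.1% lower. The genes were Gadd45g with a log2 fold change of 0.96 ± 0.18 (adjusted p = 0.00288), Btg2 with 0.79 ± 0.22 (adjusted p = 0.0202), Zfp36 with 1.09 ± 0.36 (adjusted p = 0.0381) and Egr3 with 1.47 ± 0.51 (adjusted p = 0.0456). Gadd45g passed in every fit that left out 1 library, and the other 3 did not. The number of genes that passed was 2 without control replicate 1 of 2 weeks (Gadd45g higher, and Gadd45b lower with a log2 fold change of -0.995, adjusted p = 0.0323), 1 without control replicate 2 of 2 weeks, 7 without control replicate 1 of 10 weeks, and 2 without control replicate 2 or 3 of 10 weeks or IUGR replicate 1 of either age. Without the 2 controls of 10 weeks with acinar shares above 40% the median was 0.76. That fit keeps control replicate 2 alone, the control of 10 weeks with the highest median deviation. With the acinar covariate 11 genes passed, all higher, against 18.6% of all transcripts. For Gadd45g, Btg2 and Zfp36 all libraries of 10 weeks were above all libraries of 2 weeks, as for 20.6% of all transcripts. The median over the genes was 0.44, against -0.0029 for all transcripts, and 0.21 without control replicate 1 of 2 weeks. In controls 7 of 10 mesenchymal markers fell with age, and their part in the values of the 34 genes was not tested.

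**Figure D5:**
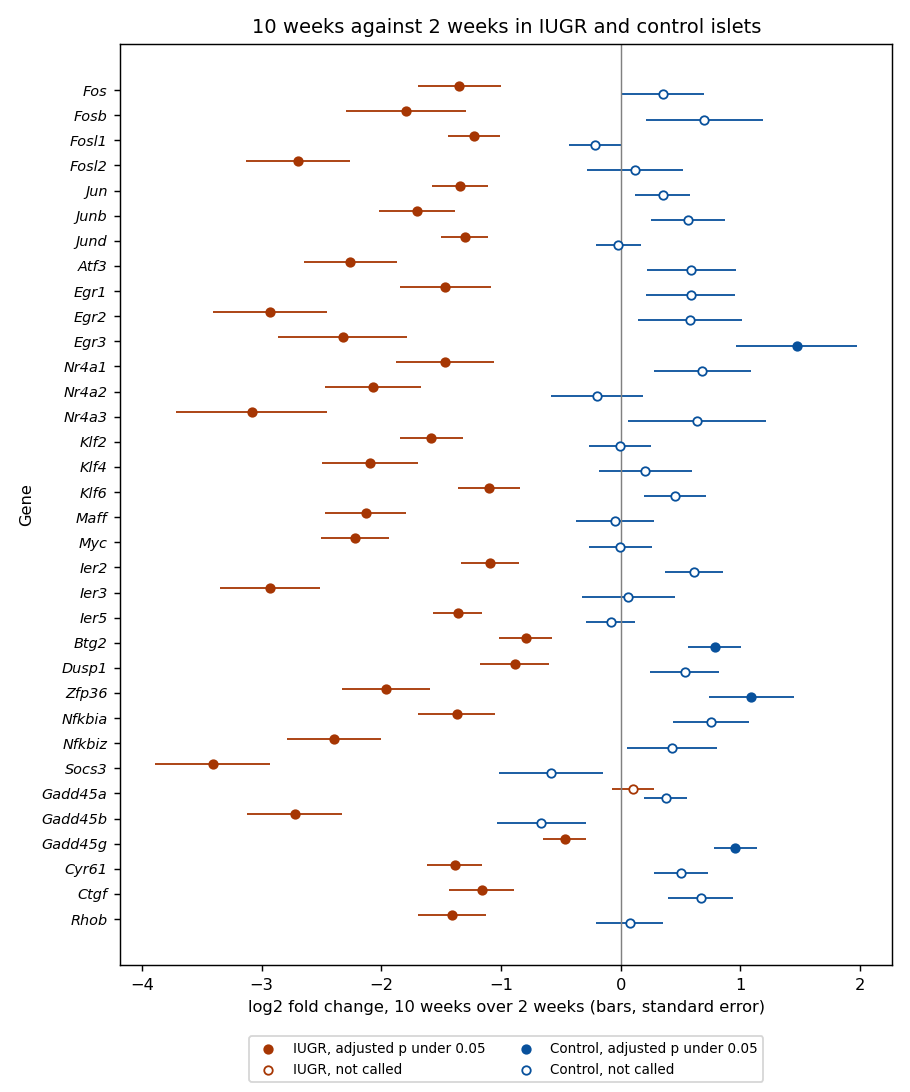
Log2 fold changes of 10 over 2 weeks for each gene in IUGR and in control islets, with bars of 1 standard error and filled points where the adjusted p was under 0.05. In IUGR islets 33 genes are filled and below 0, and in control islets 4 are filled and above 0.

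By group mean, IUGR islets of 2 weeks were the highest of the 4 groups for 26 genes and control islets of 10 weeks for 6 (Egr1, Egr3, Ier2, Btg2, Zfp36 and Gadd45g). Myc was highest in control islets of 2 weeks and Gadd45a in IUGR islets of 10 weeks. IUGR islets of 10 weeks had the lowest mean for 33 genes, the exception being Gadd45a, which was lowest in control islets of 2 weeks. The control groups of the 2 ages overlapped each other for 31 of the 34 genes, and the other 3 were higher at 10 weeks. Of all 20733 transcripts tested, 4269 were higher and 4252 lower at 10 weeks without overlap.

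Other genes of the same pathways were counted from whole lists, drawn up, like the set itself, with earlier results of these data known. Of 40 further early-response and feedback genes (other DUSP, Sprouty, ID, CEBP and SIK genes among them), 21 fell and none rose in IUGR islets of 10 weeks, against 15.5% of all transcripts lower and 12.4% higher, with a median of -0.90. The smallest p-values belonged to the pseudokinase gene Trib1 (-0.92 ± 0.13, adjusted p = 0.00158), the kinase gene Pim3 (-1.43 ± 0.20, adjusted p = 0.00160), Id2 (-0.95 ± 0.14, adjusted p = 0.00169), Zfp36l1, the close relative of Zfp36 (-1.70 ± 0.28, adjusted p = 0.00266), and the Notch target Hes1 (-1.10 ± 0.20, adjusted p = 0.00430). At 2 weeks none of the 40 passed in edgeR and 18 had an unadjusted p under 0.05, against 28.6% of all transcripts, with a median of 0.50. The age difference of the IUGR effect passed for 23, all lower, against 10.4% of all transcripts.

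Heat shock genes answer unfolded protein. Of 17, 6 were lower and 3 higher in IUGR islets of 10 weeks, against 15.5% and 12.4% of all transcripts, with a median of -0.06, and their summed level was 3495 to 4078 CPM in IUGR and 3716 to 4431 CPM in control islets. Small heat shock proteins and their cochaperone were among the lower ones: Cryab (-0.95 ± 0.15, adjusted p = 0.00242), Hspb1 (-1.71 ± 0.36, adjusted p = 0.00736) and Bag3 (-1.48 ± 0.33, adjusted p = 0.00887). The mitochondrial chaperonin gene Hspe1 (0.47 ± 0.09, adjusted p = 0.00554) and Hsf2 (0.41 ± 0.08, adjusted p = 0.00554) were higher. At 2 weeks Cryab was the 1 gene called, higher in IUGR islets (0.67 ± 0.15, adjusted p = 0.0450).

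Kinases and factors that carry the signal to the early genes were counted as well. Of 33 tested, 8 were lower and 2 higher in IUGR islets of 10 weeks, against 15.5% and 12.4% of all transcripts, with a median of -0.07. None passed at 2 weeks, where 15 had an unadjusted p under 0.05, against 28.6% of all transcripts. The lower ones included the coactivator Yap1 (-1.25 ± 0.12, adjusted p = 0.000502) and its relative Wwtr1 (-1.10 ± 0.21, adjusted p = 0.00545), Srf, the factor that binds CArG boxes (-0.53 ± 0.12, adjusted p = 0.00919), and Map3k5 (-0.53 ± 0.12, adjusted p = 0.0113). Map2k1, the kinase that activates ERK, was higher (0.48 ± 0.10, adjusted p = 0.00822). Yap1 and Wwtr1 are also transcribed in mesenchymal and endothelial cells, whose marker lists were lower in the same comparison, and the part of those cells was not tested.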

How the data were processed

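RNA-seq of islets gave 12 libraries, placed by their labels in 4 groups of 3. The authors deposited an unnormalized table of counts for 30309 rat transcripts, with whole numbers and unequal library totals. Programs and builds appear in the submitters' processing notes with no role stated: TopHat2 2.0.9, bedtools, rn5 and mm9. Neither the counting rule nor the strand setting is given in the sources used here, so reads of a gene and of an antisense partner cannot be told apart, and a read may count for several transcripts of 1 gene (Fosl2 had 2 listed).

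Tests used edgeR 4.0.16 under R 4.3.3: transcripts were kept by filterByExpr, scaled by TMM and fitted in 1 robust quasi-likelihood model of the 4 groups. Benjamini-Hochberg adjustment covered the 20733 transcripts tested. Standard errors are the size of the log2 fold change divided by the root of its F statistic. Scripts were tested on simulated data. The fits were repeated with DESeq2 1.42.0, with RLE scaling, with every transcript, with replicate number as a block, with each library's acinar level (mean log2 CPM of that list) as a term, without the acinar list and the 20 most abundant transcripts, on the 6 libraries compared, on 1 transcript a symbol, and with libraries left out. All 34 genes found are reported, and from each other list at most 5 called genes with the smallest p per comparison. The genes and lists were chosen with earlier results of these data known. No replicate pair agreed within sampling noise.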

Additional observations from a re-analysis of the deposited data

Results flagged for a closer look

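The IUGR effect differed between the ages for 32 of the 34 genes, by the edgeR test of the difference itself (10-week minus 2-week log2 fold change, adjusted p under 0.05). The labels give neither date nor length of an isolation, so the part of islet isolation in these differences was not tested. In the AP-1 group the differences were -1.70 for Fos, -2.49 for Fosb, -2.81 for Fosl2, -1.69 for Jun, -2.26 for Junb, -1.28 for Jund and -2.85 for Atf3. For the EGR genes they were -2.05 for Egr1, -3.51 for Egr2 and -3.79 for Egr3, and for the nuclear receptors -2.15 for Nr4a1, -1.87 for Nr4a2 and -3.72 for Nr4a3. Among the other transcription factors they were -1.57 for Klf2, -2.30 for Klf4, -1.55 for Klf6, -2.08 for Maff and -2.21 for Myc. The small early-response genes had -1.71 for Ier2, -2.99 for Ier3, -1.28 for Ier5 and -1.58 for Btg2. The feedback genes had -1.42 for Dusp1, -3.06 for Zfp36, -2.12 for Nfkbia, -2.83 for Nfkbiz and -2.83 for Socs3. The rest were -2.06 for Gadd45b, -1.42 for Gadd45g, -1.90 for Cyr61, -1.83 for Ctgf and -1.48 for Rhob.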

How the results depend on the processing

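The number of the 34 genes called varied as follows. For IUGR against control at 2 weeks, where none was called, there were 15 with DESeq2, 6 without the 2 controls of 10 weeks with acinar shares above 40%, 5 when control replicate 1 of 2 weeks was left out with them (chosen after seeing the data), and 0 to 5 over the fits without 1 library. At 10 weeks the 26 calls were 16 to 32 over the fits without 1 library and 20 to 32 in the other alternatives. For the difference between ages, which has no fit of 6 libraries, the 32 calls were 23 to 33 without 1 library and 27 to 33 otherwise. For 10 against 2 weeks in control, the 4 calls were 7 with DESeq2, 2 without the filter, 11 with the acinar covariate, 1 in the 6 libraries compared, 8 without the high-acinar controls of 10 weeks, 8 also without control replicate 1 of 2 weeks, and 1 to 7 without 1 library. In IUGR the 33 calls were 31 to 33 without 1 library. The cause of these shifts was not tested. No gene called changed its direction in any alternative. With the acinar covariate 7 uncalled estimates at 2 weeks changed sign. Counting each gene in each alternative, uncalled estimates also changed sign 48 times for age in control, 1 time at 10 weeks and 1 time for age in IUGR.

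Over all transcripts, the calls at 2 weeks were 804 in the edgeR fit, 3166 with DESeq2, 149 without the filter, 0 with the acinar covariate, 0 in the 6 libraries compared and 1807 without the high-acinar controls of 10 weeks. At 10 weeks they were 5776, against 1849 with the acinar covariate and 3472 in the 6 libraries compared.

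The replicate numbers were not taken to pair the libraries: 8 of 18 correlations of same-numbered libraries' deviations were above 0.1 (range -0.14 to 0.48), short of the requirement that all be. A library correlated best with its own number in 19 of 36 cases, where chance gives 12. With the replicate block the calls were 3 at 2 weeks (Ier3, Ier5 and Klf2, higher), 26 at 10 weeks (without Fosb, adjusted p = 0.0547, and with Klf2, adjusted p = 0.0333), 32 for the difference, 5 for age in control and 33 for age in IUGR, and over all transcripts 1223 at 2 weeks. The acinar share differed without overlap between IUGR and control at both ages, so the share and the condition cannot be fully told apart with 3 libraries a group.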
